A study of Mus musculus with 8 samples.

Results

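Genes of heart muscle were measured in whole lungs of mice. The group holds 34 genes of atrial and ventricular heart muscle, listed by name and found in the deposited tables through their Ensembl identifiers, out of 52636 gene identifiers in all. No measured value was used to choose them, but the list was drawn up with earlier results of these data known. Of the 34 genes, 31 had enough reads to be tested, and the other 3 were Myl2, Nkx2-5 and Nppb.

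Lung RNA was sequenced in 8 libraries, 2 from each of 4 groups of wild type male C57BL/6 mice. The COPD mice model, called COPD mice below, was made with porcine pancreatic elastase (PPE) at 10 weeks of age and lipopolysaccharide (LPS) from 12 weeks, and control mice received PBS at both times. From 8 weeks of age, the food was either a control diet or a diet with 2% TJ-41 (Hochuekkito, a Japanese herbal medicine). The sample titles spell it TJ41 and a characteristic spells it TJ4, which were taken as the same diet. The sources used here give neither the day of RNA collection nor whether the 2 libraries of a group came from separate mice, so every p-value below measures the spread between libraries. The libraries held 18767295 to 20888042 counted reads, and levels are given as CPM, the count divided by the library total after trimmed-mean scaling and multiplied by 1000000. At this depth, 3 reads corresponded to 0.153 to 0.162 CPM, and reads were not marked as separate molecules, so these limits cover counting error only. The 2 libraries of COPD mice fed control diet stood further apart than the replicates of any other group: the SD of their log2 difference over all tested genes was 0.675, against 0.313 to 0.377 in the other groups.

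In mice, heart muscle cells are not confined to the heart: a sleeve of striated cardiac muscle runs from the left atrium along the pulmonary veins into the lung, so lung RNA can contain transcripts of the cardiac contractile apparatus. Cardiac muscle contracts when calcium, released through the ryanodine receptor and taken back by a pump that phospholamban and sarcolipin restrain, acts on the troponin complex of the thin filament, which lets myosin of the thick filament pull. Atrial cells use the light chains Myl7 and Myl4 and secrete natriuretic peptide A, and ventricular cells use Myl2 and Myl3. In bulk RNA, fewer muscle cells and less RNA per muscle cell cannot be told apart.

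Promoter sequences, from 250 bases before to 50 bases after the transcript start, were found for 30 of the 34 genes in RefSeq (GRCm38.p6). They were searched on both strands for sites of muscle transcription factors. The CArG box, which binds serum response factor, was found in 5 of the 30 promoters and in 1.63% of all 32851 promoters of the same length. The MEF2 site was found in 3 of the 30 and in 0.557% of all. The MCAT element (CATTCC) was found in 9 of the 30 and 14.7% of all, the GATA core (GATA) in 23 of the 30 and 57.9% of all, the NKX2-5 core (AAGTG) in 12 of the 30 and 46.4% of all, and the TATA box (TATAAA) in 6 of the 30 and 13.6% of all. A match is a run of letters and not a shown binding site. The 5 promoters below are printed because Myl7 and Actc1 were the most abundant members per kb, Myl3 is a ventricular light chain whose promoter holds the same pair of elements as Myl7, and Mybpc3 and Ttn hold the MEF2 site. They lie at chr11:5898733-5899032 on the minus strand for Myl7, at chr2:114052826-114053125 on the minus strand for Actc1, at chr9:110763428-110763727 on the plus strand for Myl3, at chr2:91117894-91118193 on the plus strand for Mybpc3 and at chr2:76982498-76982797 on the minus strand for Ttn. Capitals mark CArG boxes, MEF2 sites, MCAT elements and TATA boxes. In Myl7 the MCAT element and the CArG box were spaced at -70 to -65 and -61 to -52 relative to the start, and in Myl3 the CArG box was at -85 to -76 with MCAT elements at -177 to -172 and -149 to -144.
Myl7: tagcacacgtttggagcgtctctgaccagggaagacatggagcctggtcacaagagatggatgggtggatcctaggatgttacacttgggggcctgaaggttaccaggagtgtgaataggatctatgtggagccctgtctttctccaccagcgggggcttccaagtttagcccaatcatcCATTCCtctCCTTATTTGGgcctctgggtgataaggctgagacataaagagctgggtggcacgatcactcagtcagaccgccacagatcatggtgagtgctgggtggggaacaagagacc
Actc1: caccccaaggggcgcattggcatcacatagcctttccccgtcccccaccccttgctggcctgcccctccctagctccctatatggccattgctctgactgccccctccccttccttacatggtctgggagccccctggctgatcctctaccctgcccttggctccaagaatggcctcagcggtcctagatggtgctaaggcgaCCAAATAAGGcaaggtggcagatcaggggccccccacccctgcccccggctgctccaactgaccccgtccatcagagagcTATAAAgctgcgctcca
Myl3: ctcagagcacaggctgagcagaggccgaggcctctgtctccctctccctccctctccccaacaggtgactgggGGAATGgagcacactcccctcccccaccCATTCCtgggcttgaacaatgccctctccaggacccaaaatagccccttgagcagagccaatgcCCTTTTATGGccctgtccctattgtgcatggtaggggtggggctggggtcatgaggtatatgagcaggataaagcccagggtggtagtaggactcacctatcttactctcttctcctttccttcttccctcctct
Mybpc3: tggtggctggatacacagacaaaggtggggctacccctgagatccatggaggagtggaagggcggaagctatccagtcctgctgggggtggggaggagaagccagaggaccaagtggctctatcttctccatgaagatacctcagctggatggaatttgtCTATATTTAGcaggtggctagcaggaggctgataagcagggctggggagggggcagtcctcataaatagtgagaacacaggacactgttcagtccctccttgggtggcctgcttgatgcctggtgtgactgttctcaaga
Ttn: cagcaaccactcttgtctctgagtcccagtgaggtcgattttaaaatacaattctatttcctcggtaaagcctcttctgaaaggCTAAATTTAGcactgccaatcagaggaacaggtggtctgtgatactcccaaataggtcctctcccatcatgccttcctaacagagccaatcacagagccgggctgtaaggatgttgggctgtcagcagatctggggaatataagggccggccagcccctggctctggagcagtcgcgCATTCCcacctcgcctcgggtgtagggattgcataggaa

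Heart muscle transcripts were present in every library and carried an atrial pattern of light chains. Together the 34 genes took 0.0485% to 0.102% of the counted reads. Divided by the length of their merged exons, the highest mean levels were those of Myl7, at 64.9 CPM per kb, and Actc1 (cardiac alpha-actin), at 61.0 CPM per kb. Their ranges over the 8 libraries overlapped, from 36.2 to 115 for Myl7 and from 36.8 to 89.9 CPM per kb for Actc1. Myh6 (alpha-myosin heavy chain, the main motor of the adult mouse heart) followed at 25.6 CPM per kb, then Ankrd1 at 13.2, Tcap at 12.6, Tnni3 at 11.2 and Tnnt2 at 9.47 CPM per kb, and neighbours in this order overlapped across libraries. Myh7 (beta-myosin heavy chain) stood at 3.07 CPM per kb, fifteenth in the order, and Myl3 at 0.672 CPM per kb. The last 3 places were taken by Nkx2-5 at 0.0711, Myl2 at 0.0562 and Nppb at 0.0165 CPM per kb.

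**Figure D1:**
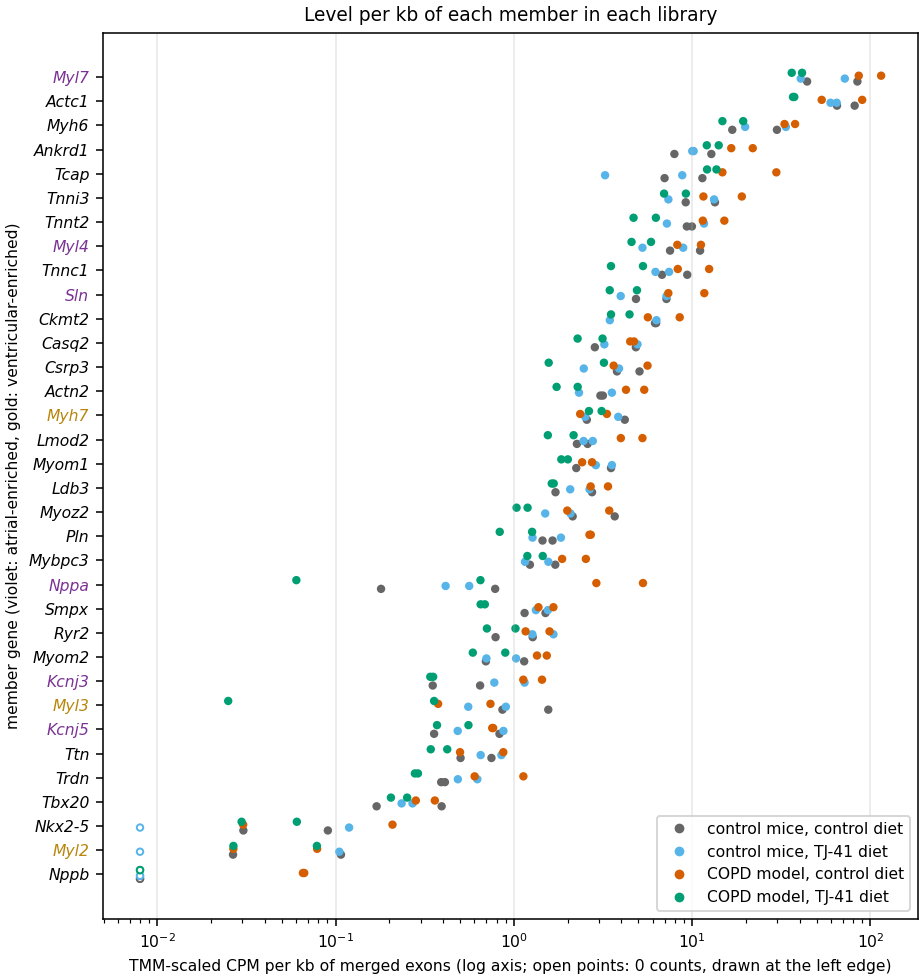
Level of each of the 34 genes in each library, in CPM per kb of merged exons on a log axis, coloured by group, with genes ordered by their mean and open points at the left edge for libraries with 0 reads. The atrial light chain Myl7 lies at the top with 36.2 to 115 CPM per kb, and the ventricular light chain Myl2 next to last, with at most 4 reads in any library.

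The atrial-enriched members were led by Myl7 (chromosome 11, 5896637 to 5898782, minus strand), the regulatory light chain of atrial myosin. Its level was 49.8 and 26.0 CPM in control mice fed control diet, 42.4 and 24.0 CPM in control mice fed TJ-41, 50.7 and 67.7 CPM in COPD mice fed control diet, and 24.4 and 21.3 CPM in COPD mice fed TJ-41. Both COPD libraries on the control diet were above all other libraries, and 1 library of each group of control mice lay close to them. Myl4, the atrial essential light chain (chromosome 11, 104550663 to 104595753, plus strand), was at 51.4 and 34.9 CPM in control mice fed control diet and at 41.3 and 24.4 CPM on TJ-41, against 38.3 and 51.9 CPM in COPD mice fed control diet and 27.3 and 21.2 CPM on TJ-41. The COPD libraries of the 2 diets were apart, while those of control mice overlapped between diets. Sln, sarcolipin, which restrains the calcium pump of atrial muscle, had 9.46 and 6.38 CPM in control mice fed control diet, 9.47 and 5.24 CPM in control mice fed TJ-41, 9.69 and 15.4 CPM in COPD mice fed control diet and 6.46 and 4.54 CPM in COPD mice fed TJ-41. Its COPD libraries were likewise apart between diets, with those of the control diet above all other libraries.

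Nppa, which encodes natriuretic peptide A (chromosome 4, 148000722 to 148002079, plus strand), was scarce and rested on few reads. It had 13 and 3 reads in control mice fed control diet, 7 and 9 in control mice fed TJ-41, 88 and 49 in COPD mice fed control diet, and 1 and 11 in COPD mice fed TJ-41, that is 0.679 and 0.156, 0.358 and 0.486, 4.58 and 2.51, and 0.0521 and 0.562 CPM. Both COPD libraries on the control diet lay above all 6 others. Exons of Gm13054, a gene on the opposite strand, cover 61.5% of the exon bases of Nppa, and since the strand setting of the counting is not given in the sources used here, reads of the pair may have been mixed or left out. Gm13054 itself was assigned at most 3 reads in any library.

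The last atrial-enriched members were the potassium channel subunits Kcnj3 and Kcnj5, which together form the acetylcholine-gated channel of atrial cells. Kcnj3 (chromosome 2, 55435970 to 55598145, plus strand) was at 1.83 and 3.37 CPM in control mice fed control diet, 5.99 and 4.05 CPM in control mice fed TJ-41, 7.50 and 5.89 CPM in COPD mice fed control diet, and 1.77 and 1.84 CPM in COPD mice fed TJ-41. The diets were thus apart in opposite directions, with TJ-41 above the control diet in control mice and below it in COPD mice. Of its exon bases, 31.1% are shared with the opposite-strand gene Gm26794, which was assigned 2 reads in all. Kcnj5 was at 1.67 and 3.89, 4.09 and 2.27, 3.54 and 3.59, and 2.61 and 1.74 CPM in the same order of groups, and its diets overlapped in control mice.

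The ventricular-enriched members were low or followed another course. Myl2, the ventricular regulatory light chain (chromosome 5, 122100951 to 122113472, plus strand), had 4, 1, 4, 0, 1, 3, 1 and 3 reads in the 8 libraries, 17 in all, where Myl7 had 5910. Myl3 (chromosome 9, 110741861 to 110769798, plus strand), the ventricular essential light chain, was at 3.19 and 1.76 CPM in control mice fed control diet, 1.84 and 1.13 CPM in control mice fed TJ-41, 1.51 and 0.768 CPM in COPD mice fed control diet, and 0.730 and 0.0511 CPM in COPD mice fed TJ-41, where the lowest value was 1 read. Its mean was highest in control mice fed control diet, where those of Myl7 and Myl4 were highest in COPD mice fed control diet. Myh7 (chromosome 14, 54970684 to 54994626, minus strand) was at 22.1 and 36.1, 33.2 and 21.7, 28.6 and 20.3, and 22.7 and 26.8 CPM in the same order, and its 4 groups overlapped. Of its distinct 50-base stretches, 15.6% also occur in Myh6, so some reads could belong to either gene.

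The thick and thin filament genes included the members with the highest CPM. Myh6 (chromosome 14, 54941921 to 54966927, minus strand) was at 113 and 201 CPM in control mice fed control diet, 226 and 133 CPM in control mice fed TJ-41, 222 and 254 CPM in COPD mice fed control diet, and 130.0 and 99.4 CPM in COPD mice fed TJ-41. Within the control diet both COPD libraries were above those of control mice, within TJ-41 both were below them, and control mice overlapped between diets. Actc1 (chromosome 2, 114047282 to 114053548, minus strand) was at 105 and 132 CPM, 105 and 96.6 CPM, 86.2 and 145 CPM, and 60.5 and 59.5 CPM in the same order, so that COPD mice fed TJ-41 lay below all other libraries. Tnnt2, the tropomyosin-binding subunit of cardiac troponin (chromosome 1, 135836354 to 135852260, plus strand), was at 77.3 and 72.3, 90.4 and 55.9, 89.0 and 117, and 48.5 and 36.4 CPM. Here too COPD mice fed TJ-41 lay below all other libraries. Tnni3 (troponin I), Tnnc1 (troponin C), Mybpc3 (myosin-binding protein C) and Lmod2 (leiomodin, which lengthens thin filaments) had mean levels of 5.69 to 23.2 CPM.

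Among the Z-disc, M-band and titin genes, Ttn, the molecular spring of the sarcomere (chromosome 2, 76703980 to 76982547, minus strand), was at 58.7 and 87.4, 99.4 and 76.1, 102 and 58.3, and 49.4 and 39.9 CPM in the same order of groups. One COPD library of the control diet lay just below all libraries of control mice and the other above them, and both lay above COPD mice fed TJ-41. Myom1, myomesin of the M-band (chromosome 17, 71002633 to 71126856, plus strand), was at 23.4 and 36.7, 37.1 and 30.1, 28.7 and 25.2, and 21 and 19.3 CPM. Actn2, the alpha-actinin that cross-links thin filaments at the Z-disc, was at 11.6 and 12, 13.5 and 8.80, 16.1 and 20.4, and 8.65 and 6.59 CPM, so that COPD mice fed control diet were above and COPD mice fed TJ-41 below all other libraries. Ldb3 (an alpha-actinin binding protein), Csrp3 (muscle LIM protein), Myoz2 (a calcineurin-binding Z-disc protein), Myom2 (of the M-band) and Smpx had mean levels of 2.82 to 14.2 CPM. Tcap (telethonin, which ties titin to the Z-disc) was at 10.8 and 6.64, 8.34 and 3.08, 14.0 and 28.1, and 13.0 and 11.5 CPM, and within each diet its COPD libraries were above those of control mice.

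Ryr2, the calcium release channel (chromosome 13, 11553102 to 12106945, minus strand), was at 22.7 and 36.7, 48.0 and 36.6, 45.6 and 33.5, and 29.4 and 20.3 CPM in the same order. Trdn (triadin, which anchors the calcium store protein to the release channel) was at 3.66 and 3.84, 5.83 and 4.54, 10.6 and 5.63, and 2.71 and 2.60 CPM. As for Kcnj3, TJ-41 lay above the control diet in control mice and below it in COPD mice. Pln (phospholamban) and Casq2 (calsequestrin, the calcium store protein) had means of 4.71 and 10.4 CPM. Ankrd1, a stress-responsive protein of the titin region (chromosome 19, 36111961 to 36120099, minus strand), was at 22.9 and 37.0, 29.4 and 28.9, 47.8 and 63.1, and 34.9 and 40.6 CPM. Both libraries of COPD mice fed control diet were above all 6 others. Of the distinct 50-base stretches of Pln, 52.9% also occur in Gm47644, which was assigned 1 to 20 reads per library. Ckmt2, the mitochondrial creatine kinase of striated muscle, ranged from 5.13 to 12.7 CPM, and Tbx20, a cardiac transcription factor, from 2.04 to 4.72 CPM.

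**Figure D2:**
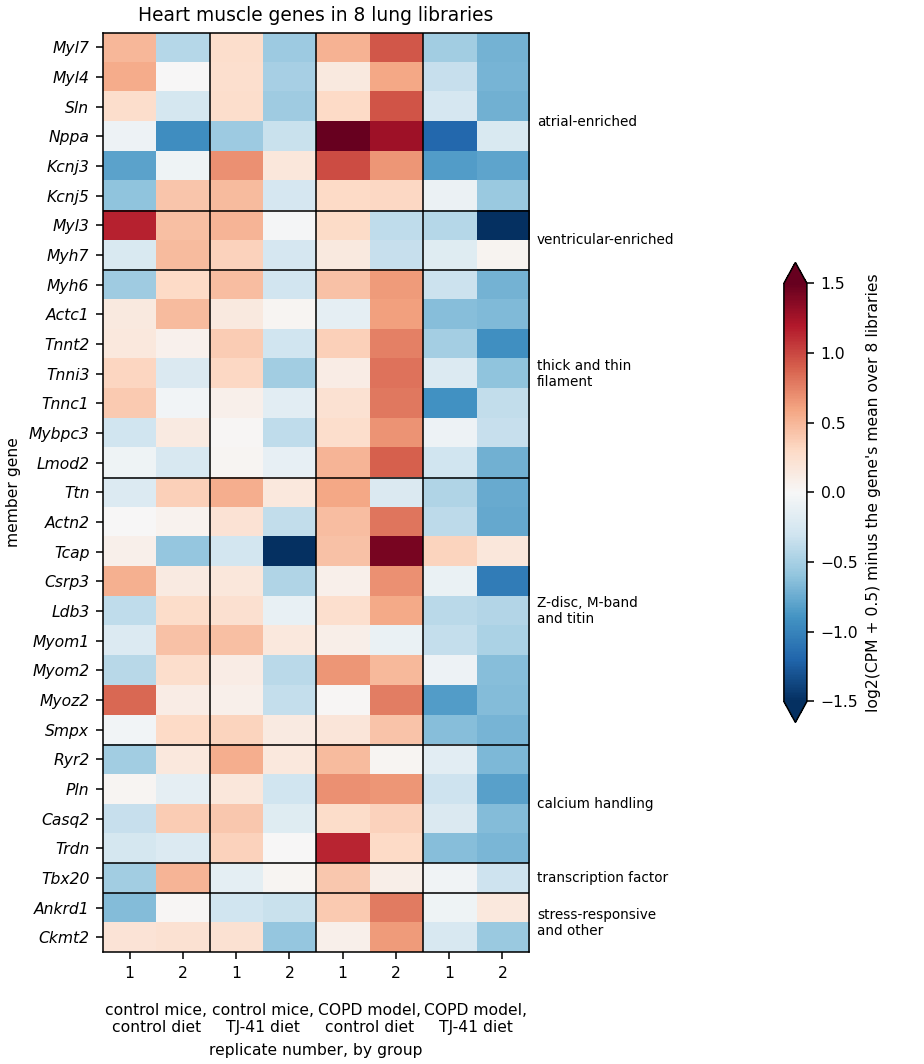
Level of the 31 tested genes in each library as the difference of log2(CPM + 0.5) from the gene's mean, with genes grouped by role and libraries by group and replicate number. Red is above and blue below the gene's mean. The columns of COPD mice fed control diet are mostly red and those of COPD mice fed TJ-41 mostly blue, while Tcap, Ankrd1 and Myh7 do not follow the blue of TJ-41 in both of its libraries.

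The summed level of the 34 genes was 706 and 855 CPM in control mice fed control diet (780 ± 105, SD, n = 2), 925 and 643 CPM in control mice fed TJ-41 (784 ± 200, SD, n = 2), 936 and 1092 CPM in COPD mice fed control diet (1014 ± 110, SD, n = 2) and 571 and 483 CPM in COPD mice fed TJ-41 (527 ± 61.7, SD, n = 2). COPD mice fed TJ-41 lay below and COPD mice fed control diet above all libraries of the other groups. The control diet gave a sum 1.93 times that of TJ-41 in COPD mice. The 9 members that define cardiac muscle (Myh6, Myl7, Myl4, Nppa, Tnni3, Tnnt2, Mybpc3, Ryr2 and Nkx2-5) had the same order of group means, with 529 ± 67.7 CPM on the control diet and 252 ± 46.8 CPM on TJ-41 in COPD mice.

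The diet comparison within COPD mice separated more members than the other 3 pairwise comparisons of groups. The fold changes of 30 of the 31 tested members were below 0 on TJ-41, with a median log2 fold change of -0.96, where the median of all 20546 tested genes was -0.015 and 52.4% of them were below 0. In the libraries themselves, 30 of the 31 members were lower in both TJ-41 libraries than in both control diet libraries, against 14.9% of all tested genes, and the exception was Myh7 (log2 fold change 0.016, standard error 0.30). None of the 31 members was called as a DEG by edgeR's quasi-likelihood test (false discovery rate under 0.05 and log2 fold change beyond 1), which called 0.00487% of all tested genes. At an unadjusted p under 0.05, 25 of the 31 members passed, against 4.10% of all tested genes, and the smallest adjusted p among the members was 0.991 (edgeR with Benjamini-Hochberg adjustment). DESeq2 called 3 members, Kcnj3, Tnnt2 and Actn2, with adjusted p from 0.0152 to 0.0492, of 14 genes in all.

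By role, all 6 atrial-enriched members were lower on TJ-41 in COPD mice, with a median log2 fold change of -1.28. Nppa had the largest fold change at -3.49 (standard error 0.79), followed by Kcnj3 at -1.89 (standard error 0.37), Myl7 at -1.37 (standard error 0.35) and Sln at -1.19 (standard error 0.38). Each of the 7 thick and thin filament genes was lower, with a median of -1.05 and a range from -1.31 for Lmod2 to -0.74 for Mybpc3. The 9 Z-disc, M-band and titin genes had a median of -0.96, from -1.28 for Myoz2 to -0.42 for Myom1, and the 4 calcium handling genes a median of -1.06, from -1.61 for Trdn to -0.67 for Ryr2. Tbx20 was at -0.49, Ckmt2 at -0.83 and Ankrd1 at -0.55. Of the 2 ventricular-enriched members tested, Myl3 was at -1.54 with a standard error of 0.81.

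The number of members called depended on the libraries of COPD mice fed control diet. With either of them left out, the group held 1 library, and edgeR called more members and also more genes in all. The members' median log2 fold change stayed between -1.15 and -0.73 whichever library was left out. The remaining library of the group was then assumed to vary as the other groups do. The summed level of 12 lung genes, which include the surfactant protein Sftpc and the club cell gene Scgb1a1, was 32757 CPM in replicate 1 and 67527 CPM in replicate 2.

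**Figure D3:**
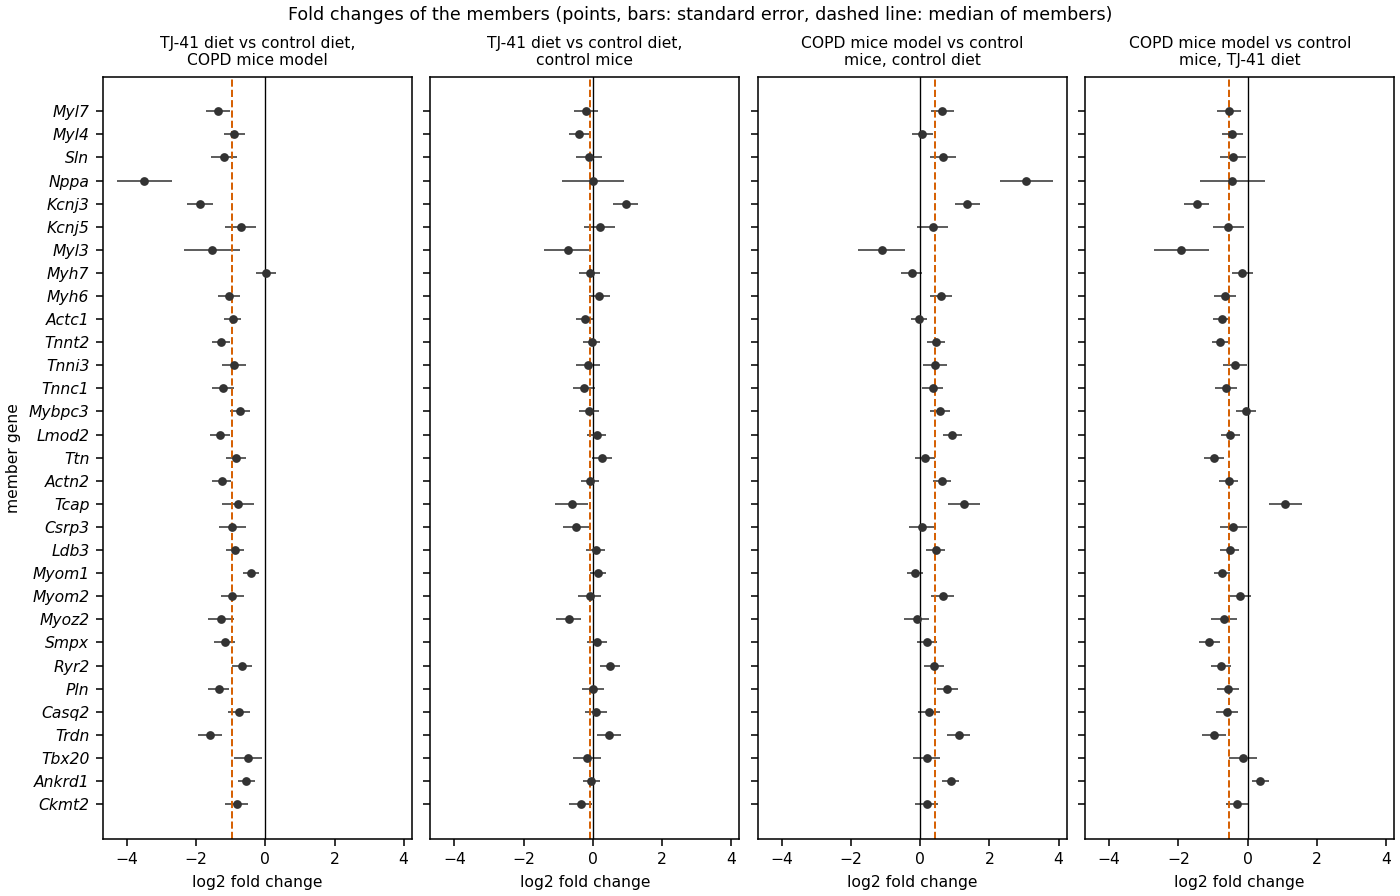
Log2 fold change of each tested member in the 4 comparisons, with bars for the standard error and a dashed line at the median of the members. In COPD mice fed TJ-41 against the control diet the points lie below 0 except Myh7 at 0.016, with a median of -0.96, and in control mice they lie on both sides of 0 with a median of -0.08.

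In control mice the diet comparison was near 0. Of the 31 tested members, 13 were above and 18 below 0, with a median log2 fold change of -0.08, and 2 members, Kcnj3 and Trdn, were higher in both TJ-41 libraries while 2, Actc1 and Myoz2, were lower in both, against 19.1% of all tested genes in each direction. edgeR called 0 of the 31 members and 0% of all tested genes, with 1 member, Kcnj3 (log2 fold change 0.95, standard error 0.36, adjusted p = 0.996), at an unadjusted p under 0.05. DESeq2 called 0 members and 0.0487% of all genes. Without replicate 2 of control mice fed TJ-41 the median turned to 0.19, and without replicate 2 of control mice fed control diet to 0.0091. Without replicate 1 of control mice fed TJ-41 it was -0.30.

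The difference between the diet effects of COPD mice and of control mice was tested in one fit. It was below 0 for 30 of the 31 members, with a median of -0.91 on the log2 scale, against -0.012 for all genes. edgeR called 0 of the members and 0% of all genes, with 13 members at an unadjusted p under 0.05 against 3.27% of all genes. Kcnj3 had the smallest adjusted p, 0.931 (edgeR), with a difference of -2.83 (standard error 0.51), and DESeq2 called it with an adjusted p of 0.00554, among 17 genes in all. Trdn was at -2.07 (standard error 0.48), and the largest difference was that of Nppa, at -3.51. Without replicate 1 of control mice fed TJ-41, the members' median difference was -0.58.

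On the control diet, most members had higher mean levels in COPD mice than in control mice, and none passed edgeR's test. The fold changes of 26 of the 31 tested members were above 0, with a median log2 fold change of 0.43, where the median of all genes was 0.0073. In 14 members both COPD libraries were above both libraries of control mice, against 13.6% of all tested genes, and 1, Myl3, was lower in both, against 14.1%. edgeR called 0 of the members and 0.122% of all tested genes, and 8 of the members had an unadjusted p under 0.05, against 7.70% of all genes. DESeq2 called 1 member, Nppa, with an adjusted p of 0.0289, and 0.847% of all genes. In edgeR, Nppa was 3.07 higher on the log2 scale (standard error 0.76, adjusted p = 0.321). The other members with an unadjusted p under 0.05 were Kcnj3 at 1.36, Tcap at 1.27, Trdn at 1.11, Lmod2 at 0.93, Ankrd1 at 0.89, Pln at 0.79 and Actn2 at 0.63. The adjusted p of Nppa ran from 0.0289 to 0.937 over the alternatives tried. Without replicate 1 of COPD mice, edgeR called 3 members, Lmod2, Tcap and Ankrd1, among 1343 genes in all (6.54% of the tested genes), and without replicate 2 it called Trdn among 140 genes (0.681%). The members' median was 0.65 without replicate 2 of control mice fed control diet.

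On the TJ-41-containing diet, most members had lower mean levels in COPD mice than in control mice, and again none passed edgeR's test. The fold changes of 29 of the 31 tested members were below 0, with a median log2 fold change of -0.55 against -0.0016 for all genes, and 17 members were lower in both COPD libraries, against 27.9% of all tested genes. The exceptions were Tcap, at 1.10 (standard error 0.48), and Ankrd1, at 0.37 (standard error 0.24), which were higher in both COPD libraries, where 28.5% of all genes were. edgeR called 0 of the members and 0.0779% of all genes, and DESeq2 called 0 of the members and 0.608% of all genes. In edgeR, 10 members had an unadjusted p under 0.05 against 6.56% of all genes. Kcnj3 had the smallest adjusted p, 0.415 (edgeR, log2 fold change -1.47, standard error 0.37), which was 0.0256 when only the 2 groups compared were fitted. Without replicate 1 of control mice fed TJ-41 the members' median was -0.24. Smpx at -1.10, Ttn at -0.97 and Trdn at -0.96 were also among those with an unadjusted p under 0.05. The comparisons of COPD mice with control mice on the 2 diets share no libraries with each other, while each shares libraries with both diet comparisons.

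Averaged over the diets, the members had no common direction in COPD mice: 13 were above and 18 below 0, with a median log2 fold change of -0.055, and edgeR called 0 of them and 0.443% of all genes, with 5 at an unadjusted p under 0.05, against 10.4% of all genes. Ankrd1, at 0.63 (adjusted p = 0.208, edgeR), and Tcap, at 1.18 (adjusted p = 0.230, edgeR), had the highest ranks, and DESeq2 called 1 member, Tcap, with an adjusted p of 0.0126, and 1.21% of all genes. Averaged over the models, TJ-41 gave fold changes below 0 for all 31 tested members, with a median of -0.57. In this comparison edgeR called 0 of them and 0% of all genes, with 15 at an unadjusted p under 0.05 against 2.48% of all genes. DESeq2 called 0 of them and 0.0243% of all genes. A test for any difference among the 4 groups passed 0 members at a false discovery rate under 0.05 in edgeR, where 0.156% of all genes passed, with 16 members at an unadjusted p under 0.05 against 6.13% of all genes, and a smallest adjusted p of 0.282 for Nppa. By DESeq2, 7 members and 1.47% of all genes passed it. Without replicate 1 of COPD mice fed control diet, edgeR called 2 members averaged over diets, Myl3 and Tcap, beside 4.25% of all genes, and 1 averaged over models, Myoz2, beside 1.11% of all genes. For the 4 groups it then passed 10 members beside 14.2% of all genes, and without replicate 2 it passed 3 beside 1.32%.

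The ratio of atrial to ventricular transcripts was computed in each library from the summed CPM per kb of Myl7, Myl4, Sln, Nppa, Kcnj3 and Kcnj5 over that of Myl2, Myl3 and Myh7. On the log2 scale it was 4.62 and 3.52 in control mice fed control diet, 4.22 and 4.07 in control mice fed TJ-41, 4.74 and 5.66 in COPD mice fed control diet, and 4.14 and 3.83 in COPD mice fed TJ-41. It was above 0 in all 8 libraries, and both COPD libraries on the control diet lay above the other 6. This order depended on the form of the ratio: without division by exon length the first of these libraries, at 1.92, lay below one of control mice fed control diet, at 2.17, and with light chains alone the highest library was one of COPD mice fed TJ-41, at 8.62. In COPD mice the ratio was 1.22 lower on TJ-41 on the log2 scale (a difference of -0.76 without replicate 2 of COPD mice fed control diet, and -1.68 without replicate 1). The denominator was set mostly by Myh7, with 4074 reads against 211 of Myl3 and 17 of Myl2. These 3 genes are shared with skeletal muscle, and Myh7 followed the other members least (r = 0.09), so the ratio does not measure chambers alone. With light chains alone (Myl7 and Myl4 over Myl2 and Myl3) the difference was 0.25 in the other direction, since Myl3 was also lower on TJ-41. That form was 6.94 and 8.11 in COPD mice fed control diet and 6.94 and 8.62 on TJ-41. The library at 8.62 had 1 read of Myl3 and 3 of Myl2. Per kb, Myh6 to Myh7 gave 3.66 ± 0.49 (SD, n = 2) in COPD mice fed control diet and 2.56 ± 0.44 (SD, n = 2) on TJ-41. With 2 libraries against 2, an exact permutation test cannot give a two-sided p below 0.333, and none was made.

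**Figure D4:**
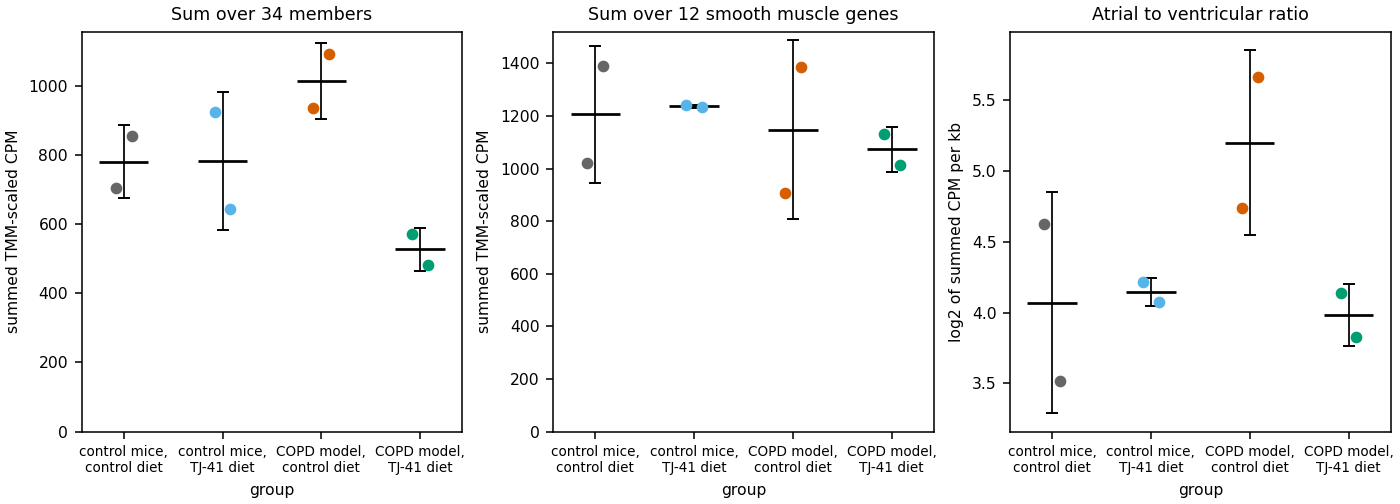
Summed CPM of the 34 members, summed CPM of 12 smooth muscle genes, and log2 ratio of atrial to ventricular transcripts per kb in each library, with the mean as a line and the SD as bars (n = 2 per group). The members are at 936 and 1092 CPM in COPD mice fed control diet and at 571 and 483 CPM on TJ-41, and the smooth muscle genes overlap between these groups, at 909 and 1388 CPM and at 1133 and 1013 CPM.

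The members varied together over the 8 libraries. The correlation of each tested member with the mean of the others, in log2(CPM + 0.5), had a median of 0.80, and 15 of the 31 were at 0.8 or above. For 18022 other genes that averaged 1 CPM or more, the correlation with the members' mean had a median of -0.022, and 0.516% of them were at 0.8 or above. These are descriptions over libraries that also share group and depth. Actn2 followed the others most closely (Pearson's r = 0.99, Spearman's rho = 1.0), then Tnnt2 (r = 0.97) and Pln (r = 0.96), and the loosest were Myh7 (r = 0.09), Tcap (r = 0.37), Ankrd1 (r = 0.42), Tbx20 (r = 0.43) and Myl3 (r = 0.45). With the mean of each group removed, the median was 0.61, so members also differed together between the 2 libraries of a group.

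Of the genes outside the list, the 10 most like the members' mean were Mylk3, Cyp51, Hmgb2, Dhrs7c, Paqr9, Gm13167, Fyn, Mlip, Rpf2 and Dnajc9, with Pearson's r from 0.98 to 0.92 over 8 libraries. Mylk3 encodes the cardiac myosin light chain kinase, and it was at 7.16 and 6.85, 8.24 and 5.78, 9.27 and 10.04, and 5.99 and 4.65 CPM in the same order of groups. Dhrs7c and Mlip are known from striated muscle, at mean levels of 1.53 and 1.67 CPM. Cyp51, of cholesterol synthesis, and Hmgb2, a chromatin protein of dividing cells, are not muscle genes, so a high r over 8 libraries was not limited to muscle.

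Other heart muscle genes, chosen by name like the members, lay on the same side of 0. Of 30 other heart muscle genes, 28 were below 0 on TJ-41 in COPD mice, with a median log2 fold change of -0.64. A correlation of 0.8 or above with the members' mean was found for 4 of them, Srl, Mypn, Mb and Hrc, and the lowest was -0.51 for Gata4. Their summed level had its highest group mean in control mice fed TJ-41, at 572 CPM, against 556 CPM in COPD mice fed control diet. None of the 30 was called by edgeR in that comparison, and 11 had an unadjusted p under 0.05. Of the 20 skeletal muscle genes, 11 had enough reads to be tested, and their summed level ran from 27.9 to 45.2 CPM over all libraries. Their median log2 fold change was -0.11, with 8 below 0, and their mean level had r = 0.56 with that of the members over 8 libraries. The defining factors Myog and Myf6 had 0 reads, but Ttn, Casq2, Trdn and several other members are shared with skeletal muscle. For the 12 smooth muscle genes the median was -0.31, with 9 below 0. The 8 genes of mesothelium and pericardium had a median of 0.74 over the 7 tested, 6 of them above 0 and none called, and their sum ran from 178 CPM in replicate 1 of COPD mice fed control diet to 417 CPM in replicate 2 on TJ-41. The 8 adipose genes had a median of 0.38 over the 7 tested and sums from 35.0 to 101 CPM. The 12 thymus and lymph node genes had a median of -0.10 over the 6 tested and sums from 66.0 to 84.8 CPM, with Foxn1 and Rag2 at 0 reads. The 12 lung genes had a median of -0.21. Of the chamber genes outside the members, Irx4 of the ventricle had 0 reads and Bmp10 had 3 reads over the 8 libraries. The part of any of these tissues in the values of the members was not tested.

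Gene length moved with the replicate differences. In control mice fed control diet, replicate 1 minus replicate 2 correlated with log2 exon length over the 31 members (r = -0.64), and also over all tested genes with a known length (r = -0.30, n = 20517). In COPD mice fed control diet the sign was opposite, with r = 0.56 over the members and 0.17 over all genes. The 8 tested members with under 2 kb of exons had a median of 0.49 in replicate 1 minus replicate 2 of control mice fed control diet and -0.56 in that of COPD mice, and the 10 members with 6 kb or more had -0.66 and 0.25. On TJ-41 against the control diet in COPD mice, both length classes were lower, with medians of -1.13 for the short and -0.81 for the long members. In control mice they were at -0.20 and 0.15. The biological coefficient of variation of the members had a median of 0.234, against 0.199 for all tested genes, and 21 of the 31 lay above the trend for their level, against 32.3% of all genes. The part of RNA quality in these length differences was not tested.

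**Figure D5:**
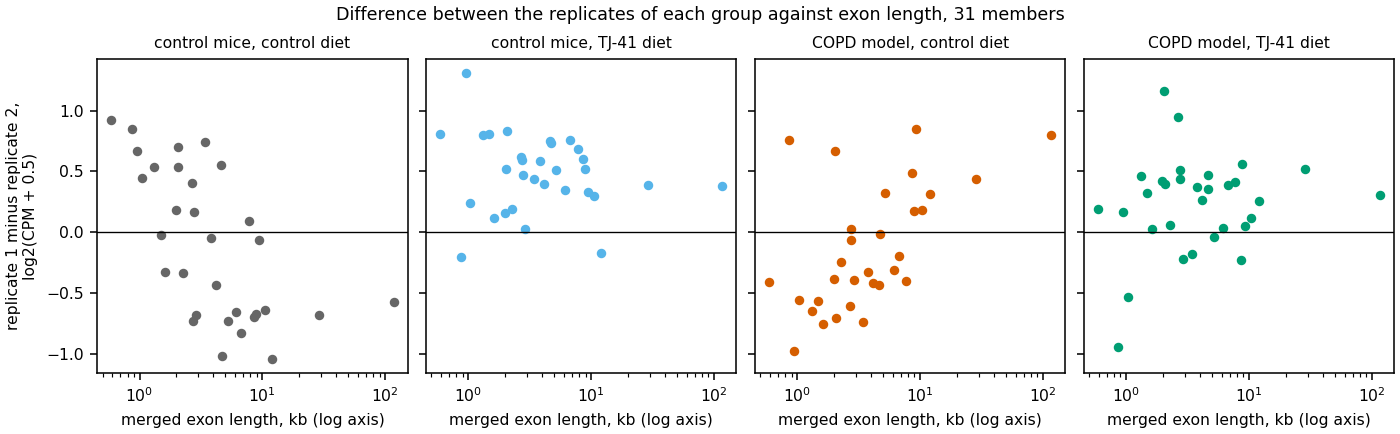
Replicate 1 minus replicate 2 of each group in log2(CPM + 0.5), against merged exon length on a log axis, 1 point per tested member. The points fall with length in control mice fed control diet (r = -0.64) and rise in COPD mice fed control diet (r = 0.56).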

How the data were processed

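The authors deposited whole-number read counts per Ensembl gene for each of the 8 lung libraries, without normalization. The submitters' processing notes name HISAT2, edgeR and the mouse build mm10, and the paper names CLC Genomics Workbench; the annotation release and the strand setting of the counting are not given in the sources used here. Gene names, positions and merged exon lengths came from GENCODE M21 (GRCm38), which held 52489 of the 52636 identifiers.

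The counts were tested in R 4.3.3 with edgeR 4.0.16, after filterByExpr (minimum count 10, minimum total 15) and TMM scaling. All 4 groups were fitted together with no block by the quasi-likelihood test with 4 residual degrees of freedom. The common biological coefficient of variation was 0.208. A DEG passed a false discovery rate of 0.05 (Benjamini-Hochberg) with its log2 fold change beyond 1. The step was also run on simulated counts in which every group had the same spread. It thus did not cover the wider spread of COPD mice fed control diet. A pseudocount of 0.5 CPM was used for levels on the log2 scale.

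The members, the other gene lists and the tests were chosen with earlier results of these data known. Values in every library are given for the 10 members with the highest mean CPM and for the atrial- and ventricular-enriched members. Genes outside the members were named as the 10 most correlated with their mean, and Tcap and the other genes singled out beyond this rule were chosen after their values were seen. Alternatives were RLE factors, library size alone, all genes with a count, DESeq2 1.42.0, the false discovery rate alone, a replicate block, only the 2 groups compared, leaving out each library, and other forms of the ratio, sum and correlation. Replicates differed by 11.9 to 88.1 times the variance of counting, so none was a copy. The labels do not say whether the replicate numbers pair the libraries, and replicate differences correlated only from -0.25 to 0.14 between groups.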

Additional observations from a re-analysis of the deposited data

How the results depend on the processing

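The median log2 fold change of the members stayed below 0 for TJ-41 in COPD mice in all 14 alternatives (-1.15 to -0.73). In control mice the median on TJ-41 ran from -0.30 to 0.19. Calls of members, 0 in each comparison, became 1 with all genes that had a count and 1 with DESeq2 for COPD mice fed control diet and averaged over diets, 1 with only the 2 groups compared on TJ-41, and, with DESeq2, 3 for TJ-41 in COPD mice and 1 for the difference of the diet effects. The test of 4 groups passed 2 members among 248 genes with all genes that had a count and 7 among 302 with DESeq2. The main fit passed 32 genes. For COPD mice fed control diet, all genes with a count gave 147 calls and DESeq2 174, against 25 in the main fit. Averaged over diets these were 278, 249 and 91. For COPD mice on TJ-41, only the 2 groups compared gave 248 genes against 16. DESeq2 called 14 genes against 1 for TJ-41 in COPD mice and 17 against 0 for the difference of the diet effects. Leaving out each library in turn gave 0 to 3 members for COPD mice fed control diet, 0 to 14 for TJ-41 in COPD mice, 0 to 2 for COPD mice averaged over diets, 0 to 1 for TJ-41 averaged over models and 0 to 10 for the 4 groups. Calls over all genes ranged from 3 to 1343 for COPD mice fed control diet and from 0 to 728 for TJ-41 in COPD mice. With the replicate block in the fit of all 4 groups, 0 members were called in each comparison. The replicate differences of the groups correlated from -0.25 to 0.14. Crossing the numbers of COPD mice and control mice fed control diet, chosen after seeing the data and fitted with those 2 groups alone, called 195 genes and 1 member, against 81 genes and 1 member with the numbers as given in the same fit of 2 groups.

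With light chains alone, the log2 atrial to ventricular ratio differed by 1.68 (COPD mice, control diet), 1.43 (COPD mice, TJ-41) and 0.25 (TJ-41, COPD mice), against 1.13, -0.16 and -1.22 in the main form. The last 2 light chain values rest on replicate 2 of COPD mice fed TJ-41, at 8.62 with 1 read of Myl3, against 6.94 in replicate 1. In the main form, leaving out a library gave 0.58 to 1.68 for COPD mice on the control diet. It gave -1.68 to -0.76 for TJ-41 in COPD mice and -0.48 to 0.63 for TJ-41 in control mice. The summed level differed by -0.23 (COPD mice on TJ-41) and -0.28 (TJ-41 in control mice) as a median over members, against -0.55 and -0.011, and leaving out a library gave -0.82 to -0.29 and -0.27 to 0.25. The cause was not tested. Depth limits Myl2, Nkx2-5 and Nppb, which had 17, 19 and 2 reads in all.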
